A study of Homo sapiens with 4 samples.

Results

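The 79 genes described here encode nuclear subunits of the respiratory chain and of ATP synthase, and they were taken by symbol from the 27800 symbols of a Salmon TPM table. The symbols were those of the NDUF A, B, C, S and V series (complex I), SDHA to SDHD (complex II), the UQCR genes with CYC1 (complex III), 11 ubiquitously used COX subunit genes (complex IV) and the ATP5 genes (complex V). A mean of at least 1 TPM over the libraries was also required, and the 79 symbols that fitted the pattern passed it, the lowest being ATP5S at 7.005 TPM. TPM (transcripts per 1000000) is the share of a library's RNA molecules that a gene takes, corrected for transcript length, so levels can be compared between genes. By complex there were 38 members in I, 4 in II, 9 in III, 11 in IV and 17 in V. NDUFA4 is counted with complex I by its symbol, although its protein is a subunit of complex IV. ATP5S and ATP5L2 carry ATP5 symbols but are not standard subunits, the first now being named DMAC2L in RefSeq and the second being a second copy of the g-subunit gene.

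The cells were MOLM-13, an established human line of acute myeloid leukaemia that carries the KMT2A-MLLT3 fusion. The 2 EV libraries came from cells given CRISPR-Cas9 lentivirus with the vector labelled EV, and the 2 sgKAT6A libraries from cells given the same system with a guide against KAT6A, a histone lysine acetyltransferase. The cell line and the Cas9 lentivirus were common to both groups; the labels leave out the time of harvest, the number of guides, clonality and whether replicates were separate transductions, so each p-value reflects just the spread among 4 libraries, which may be technical. The study asked how targeting KAT6A alters the transcriptional program of these leukaemia cells.

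The inner mitochondrial membrane carries this machinery. Complexes I and II pass electrons from NADH and succinate to coenzyme Q, complex III passes them on to cytochrome c, and complex IV gives them to oxygen. Complexes I, III and IV pump protons, and complex V, the ATP synthase, uses the returning protons to make ATP. Complexes I, III, IV and V combine subunits encoded in mitochondrial DNA with the nuclear-encoded ones described here, whereas the subunits of complex II are encoded in the nucleus. The nuclear genes are known targets of the transcription factors NRF1 and GABP (also called NRF-2), an ETS family factor, and acute myeloid leukaemia cells are known for their reliance on oxidative phosphorylation.

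Promoter sequence is shown for 3 members, as the 250 bases before the first RefSeq start listed for each. They were shown because these windows carry letters of the NRF1 core (GCATGCGC) and of an ETS site as bound by GABP (CCGGAAG). Matches on either strand are in capitals, so an NRF1 core on the other strand reads GCGCATGC and an ETS site reads CTTCCGG. Sequences are from RefSeq on GRCh38.p14, 5′ to 3′ on the gene's strand. COX6A1 lies on the plus strand, with its window at chr12:120437863-120438112. COX5B also lies on the plus strand, at chr2:97645812-97646061. ATP5J, named ATP5PF in RefSeq, lies on the minus strand, at chr21:25735055-25735304. That window lies inside the RefSeq gene span (chr21:25724500-25735653), so the start used for ATP5J is downstream of the 5′ end of the span.
COX6A1: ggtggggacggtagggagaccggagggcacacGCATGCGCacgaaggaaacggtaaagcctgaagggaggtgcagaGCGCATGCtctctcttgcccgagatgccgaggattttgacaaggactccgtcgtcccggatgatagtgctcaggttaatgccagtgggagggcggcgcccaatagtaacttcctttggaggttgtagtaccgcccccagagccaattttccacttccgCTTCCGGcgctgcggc
COX5B: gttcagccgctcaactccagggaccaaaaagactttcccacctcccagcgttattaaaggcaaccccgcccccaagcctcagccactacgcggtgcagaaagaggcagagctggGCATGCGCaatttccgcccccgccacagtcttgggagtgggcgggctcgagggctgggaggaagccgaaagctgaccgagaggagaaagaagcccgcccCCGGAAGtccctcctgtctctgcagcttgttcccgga
ATP5J: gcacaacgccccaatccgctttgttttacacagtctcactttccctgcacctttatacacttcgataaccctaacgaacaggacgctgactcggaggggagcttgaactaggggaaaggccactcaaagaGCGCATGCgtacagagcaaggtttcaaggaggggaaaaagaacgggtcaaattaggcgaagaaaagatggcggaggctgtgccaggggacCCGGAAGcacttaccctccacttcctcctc
The COX6A1 window held an NRF1 core on each strand, beginning 218 and 174 bases before the start, and an ETS site 16 bases before it. The COX5B window held both motifs, at 136 and 37 bases before the start. In ATP5J they began at 120 and 30 bases before the start used, within the gene span.

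Promoter windows were listed for 64 of the 79 members, and the first listed start of each gene was used. The NRF1 core was found in 12 of the 64 members (18.8%), in 2.81% of all 27305 listed promoters and in 5.27% of 8956 protein-coding genes tested. The ETS site was found in 16 members (25.0%), 8.82% of all promoters and 17.6% of the protein-coding genes tested. The E-box CACGTG, which MYC can bind, was found in 6 members (9.38%), 6.49% of all promoters and 9.38% of the protein-coding genes tested. The E-box letters read the same on both strands, and the motifs do not contain one another. SDHB, SDHD, COX6A1, COX5B and ATP5J held both the NRF1 core and the ETS site, and 38 of the 64 held none of the 3 motifs. A match describes letters in the window and does not show binding.

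KAT6A itself was at 16.2 and 16.7 TPM in EV against 12.2 and 10.8 TPM in sgKAT6A, so the transcript was lower in both libraries given the guide. Read depth is unknown, because TPM keeps none, and no counting interval was computed. The protein-coding share of all TPM was 81.2% and 81.7% in EV against 77.9% and 78.1% in sgKAT6A; counts after rescaling to a common protein-coding total are given with the member counts. Among markers of the line, CD33, FLT3, SPI1, MPO and HOXA9 were above 40 TPM in each library, CD34 was listed at 0 in each, and KIT was under 1 TPM. PTPRC was between 30.7 and 62.1 TPM, ITGA4 between 10.7 and 24.5 TPM and MEIS1 between 7.41 and 11.2 TPM. Of the 8 tested, FLT3 and HOXA9 were lower in sgKAT6A without overlap of the groups, beside 23.2% of all genes tested. FLT3 was at 61.0 and 59.4 TPM in EV against 46.2 and 42.9 TPM in sgKAT6A. Of 17 lymphoid, erythroid, stromal, epithelial and endothelial markers, 4 reached a mean of 1 TPM (PECAM1, HBA1, HBB and CD3D), and their order did not separate the groups. Over the libraries HBA1 was between 67.3 and 201 TPM, HBB between 38.6 and 192 TPM and PECAM1 between 32.8 and 77.9 TPM. CD3D was between 5.65 and 11.5 TPM.

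Respiratory chain and ATP synthase transcripts were lower in sgKAT6A than in EV as a group, by small amounts. Of the 79 members, 76 had a lower mean log2 level in sgKAT6A. The share of all genes tested with a lower mean was not computed, so the 76 do not set the members apart. In 56 members the groups did not overlap with sgKAT6A on the lower side, against 0 with sgKAT6A on the higher side. Among all 12603 genes tested, 23.2% were lower and 14.4% higher without overlap of the groups. Members are abundant, 57 of them with a mean of at least 100 TPM, and of 880 other protein-coding genes at that level 38.0% were lower and 7.16% higher without overlap. The median log2 difference of the members was -0.19 (differences are sgKAT6A minus EV on the log2(TPM + 1) scale), the median ratio of group means was 0.876, and single members ran from -0.52 for NDUFAB1 to 0.12 for ATP5L2. The median over all genes tested was -0.02 and that over the 880 abundant genes -0.10. No member passed the test across all genes. Their adjusted p-values by limma were between 0.784 and 0.998, and 4 members had an unadjusted p under 0.05, beside 3.64% of all genes tested in either direction and 1.98% on the lower side. Over all 12603 genes, limma gave 0 calls at an adjusted p under 0.05 and 459 genes with an unadjusted p under 0.05.

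The count of separated members depended on the scaling. It was 47 lower and 1 higher with median-of-ratios scaling (background 21.5% lower), 38 lower and 2 higher after rescaling protein-coding genes to a common total (16.2% lower, 19.5% higher), and 29 lower and 1 higher with quantile normalization (19.4%). The median difference of the members was -0.19, -0.13 and -0.14 under these 3 settings. The median over all genes tested was -0.02, 0.03 and -0.03 in the same order. Shares among abundant genes alone were not computed under these settings.

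Summed over the members, the respiratory chain and ATP synthase took 26901 TPM in EV replicate 1, 25000 TPM in EV replicate 2, 23464 TPM in sgKAT6A replicate 1 and 21037 TPM in sgKAT6A replicate 2. These are 2.69%, 2.50%, 2.35% and 2.10% of each library. The groups did not overlap, and the ratio of the group means was 0.857. The gap of 1536 TPM between the lower EV and the higher sgKAT6A library was, however, smaller than the gap of 1901 TPM between the EV libraries and that of 2427 TPM between the sgKAT6A libraries. With 2 libraries a group, the smallest two-sided p that an exact permutation test allows is 0.3333. As a share of protein-coding TPM, the members took 3.31% and 3.06% in EV and 3.01% and 2.69% in sgKAT6A.

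The 5 complexes showed this order of the libraries alike in their sums. Complex I summed to 9035 and 8537 TPM in EV against 8036 and 7254 TPM in sgKAT6A. Complex III summed to 2571 and 2368 TPM against 2269 and 1998 TPM, and complex V to 6508 and 5962 TPM against 5685 and 4986 TPM. Complex IV had the lowest ratio of sgKAT6A to EV, 0.839, with 8422 and 7774 TPM against 7119 and 6472 TPM. Complex II had the ratio closest to 1, 0.943, with 364 and 359 TPM against 355 and 327 TPM. In complex IV the gap between the groups, 655 TPM, was slightly larger than the gaps within them (649 TPM in EV and 647 TPM in sgKAT6A). In complexes II, III and V it was smaller than both gaps, and in complex I (501 TPM) it was larger than the EV gap of 498 TPM and smaller than the sgKAT6A gap of 782 TPM. Differences between complexes were not tested.

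**Figure D1:**
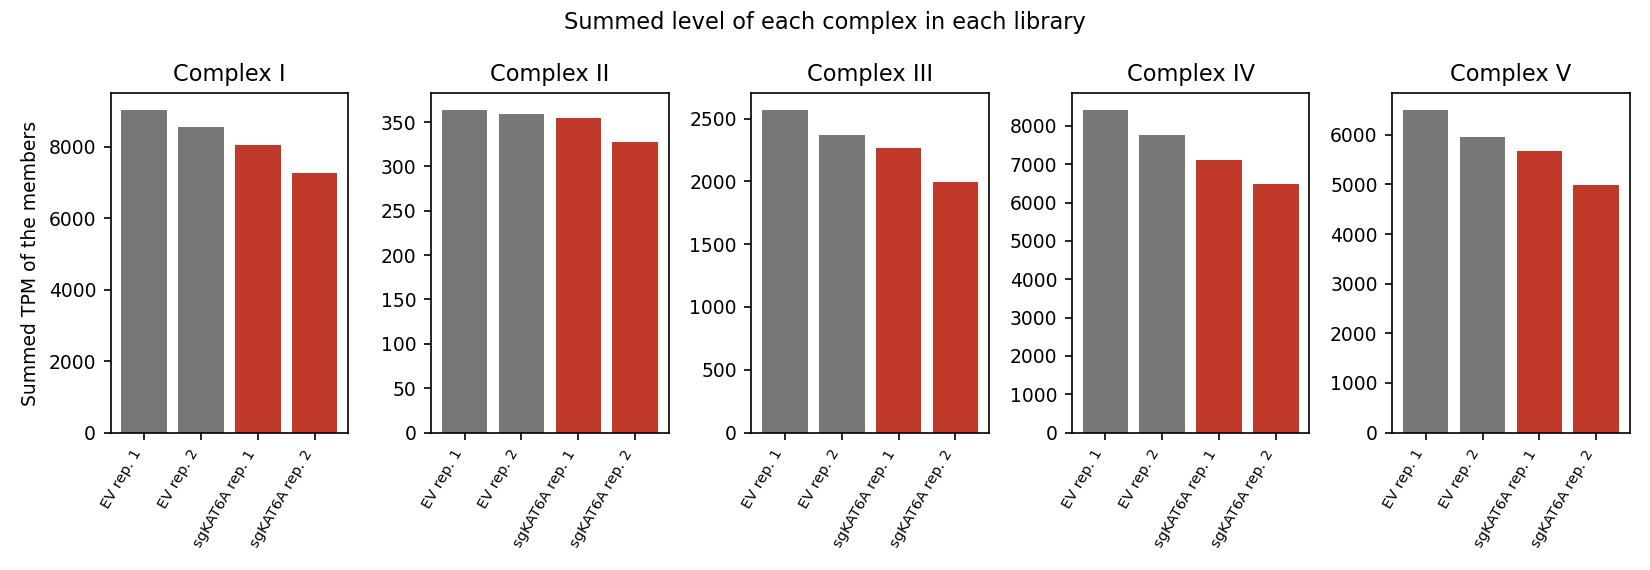
Summed TPM of the members of each complex (vertical axis, from 0, a different scale for each complex) in the 2 EV libraries (grey) and the 2 sgKAT6A libraries (red), with 1 bar per library. In each complex EV replicate 1 is highest and sgKAT6A replicate 2 lowest; complex II differs least, with a ratio of 0.943.

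Replicate libraries also differed in these genes. In EV, 58 of 79 members were lower in replicate 2 than in replicate 1, with a median gap of -0.08. In sgKAT6A, 67 members were lower in replicate 2, with a median gap of -0.16. The group difference was larger than both of these gaps in 45 of the 79 members. Matching shares over all genes tested were not computed for these counts, so the counts do not set the members apart. Without sgKAT6A replicate 1 the median difference was -0.28, and without sgKAT6A replicate 2 it was -0.13. Members lower without overlap numbered 74 and 58 in these (background 44.2% and 33.3%), 60 without EV replicate 1 (37.6%) and 67 without EV replicate 2 (35.7%). Marker genes of monocytes differed in the same samples. The 14 monocyte markers tested of 15 were higher in sgKAT6A when libraries of the same replicate number were compared, a pairing that the labels do not give. The share of all genes tested that were higher by that pairing was not computed. FCGR3A had an EV mean of 0.474 TPM and an sgKAT6A mean of 2.83 TPM. It passed the filter of 1 TPM only through sgKAT6A, so its order carries no weight. Without that pairing, 2 of the 14 were higher without overlap (LYZ and CD86), beside 14.4% of all genes tested. The 15 markers summed to 7622 and 9707 TPM in EV and to 12141 and 12039 TPM in sgKAT6A. Most of this came from LYZ (7060 and 8068 TPM against 10975 and 9500 TPM). The other 14 markers summed to 562 and 1639 TPM in EV against 1166 and 2539 TPM in sgKAT6A, where the groups overlapped and replicate 2 was the higher in each, with CD163 between 0 and 0.121 TPM. The part of monocytic maturation in the levels of the respiratory chain genes was not tested. In bulk RNA, fewer cells of a type and less RNA per cell cannot be told apart.

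**Figure D2:**
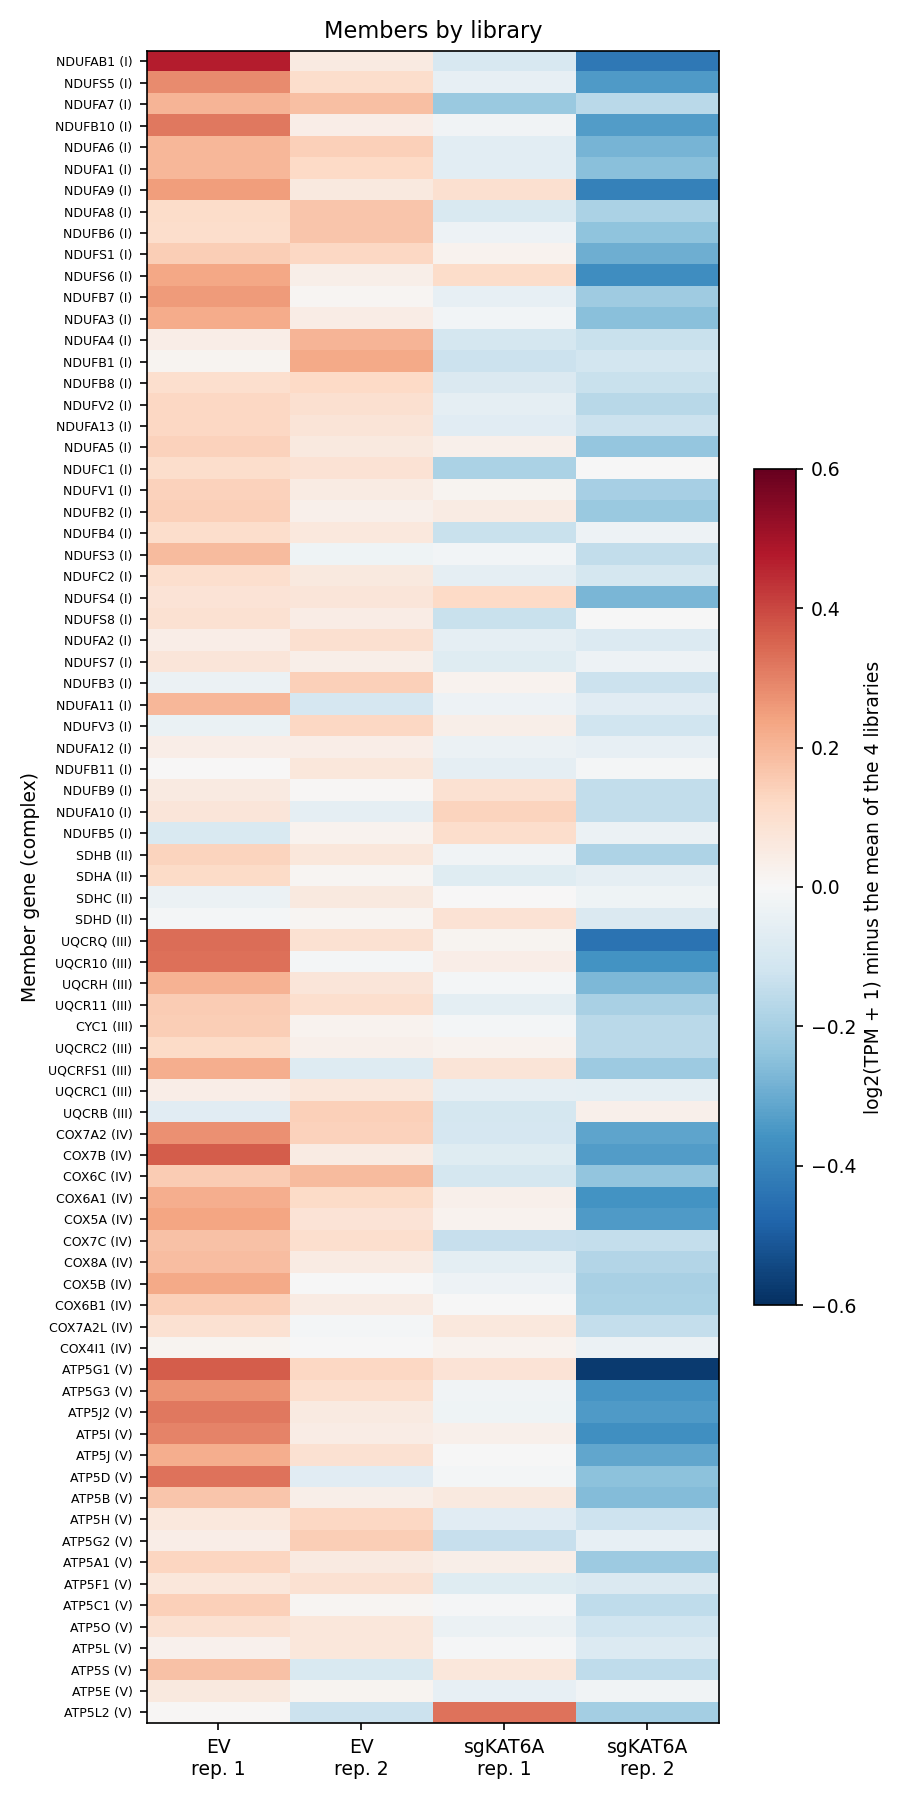
Level of 78 of the 79 members (rows, by complex) in each library (columns), as log2(TPM + 1) minus the mean of the 4 libraries; red is above and blue below that mean. In 72 of the 78 rows EV replicate 1 is above and sgKAT6A replicate 2 below the mean. The other rows are NDUFB3, NDUFV3, NDUFB5, SDHC, SDHD and UQCRB. The share of all genes tested with EV replicate 1 above and sgKAT6A replicate 2 below was not computed.

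Complex I, the NADH dehydrogenase, is built from a peripheral arm that oxidises NADH and a membrane arm that pumps protons. Of its 38 members, 26 were lower and 0 higher without overlap of the groups, with a median log2 difference of -0.19. The background for this and the other complexes was 23.2% lower and 14.4% higher of all genes tested. Among the 880 abundant genes it was 38.0% and 7.16%. In the catalytic core of the peripheral arm, NDUFV1, which binds NADH and the flavin, was at 154 and 145 TPM in EV against 141 and 122 TPM in sgKAT6A. Its partner NDUFV2, an iron-sulfur protein, was at 152 and 149 TPM against 134 and 124 TPM. NDUFS1, the largest iron-sulfur subunit, was at 38.5 and 38.0 TPM against 35.2 and 28.2 TPM. The groups of these 3 genes did not overlap, with log2 differences of -0.18, -0.22 and -0.27, while the sgKAT6A libraries lay further apart than the groups did in NDUFV1 (a gap of -0.21) and NDUFS1 (-0.31).

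Among the subunits that line the path to coenzyme Q, log2 differences were -0.11 for NDUFS7, -0.14 for NDUFS8 and -0.17 for NDUFS3. Whether these subunits differed from NDUFV1 (-0.18), NDUFV2 (-0.22) and NDUFS1 (-0.27) was not tested. NDUFS7 was at 218 and 213 TPM in EV against 197 and 203 TPM in sgKAT6A, and NDUFS8 at 127 and 122 TPM against 108 and 118 TPM, both without overlap. NDUFS3 overlapped, at 127 and 110 TPM against 110 and 101 TPM, where EV replicate 2 lay just below sgKAT6A replicate 1.

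Larger differences in complex I were found among accessory subunits, which surround the core and are needed for assembly and stability. NDUFAB1, the mitochondrial acyl carrier protein, which also serves lipoate synthesis, was at 237 and 177 TPM in EV against 160 and 127 TPM in sgKAT6A. Its log2 difference was -0.52 ± 0.22 (SE), and the 95% interval ran from -1.12 to 0.08. NDUFS5, an accessory subunit on the intermembrane-space side, was at 489 and 432 TPM against 387 and 317 TPM, a log2 difference of -0.39. NDUFA7 (chr19:8308595-8321375, RefSeq on GRCh38.p14) was at 176 and 173 TPM against 130 and 137 TPM. The NDUFA7 libraries of each group lay close together (log2 gaps of -0.03 in EV and 0.07 in sgKAT6A), and the log2 difference was -0.38 ± 0.11 (SE); the 95% interval ran from -0.68 to -0.09, with an unadjusted p of 0.0225 by limma (adjusted p = 0.784).

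Other accessory subunits without overlap included NDUFB10 (-0.36), NDUFA6 (-0.34), NDUFA1 (-0.32), NDUFA8 (-0.28), NDUFB6 (-0.27), NDUFB7 (-0.27) and NDUFA3 (-0.26). Those with smaller differences and no overlap included NDUFA12 (-0.08) and NDUFB11 (-0.07). NDUFB5 was the complex I member with a positive difference, 0.07, at 126 and 137 TPM in EV against 145 and 131 TPM in sgKAT6A. Levels within the complex were far apart. NDUFB9 was highest, at 1109 and 1075 TPM in EV against 1139 and 965 TPM in sgKAT6A, and NDUFA5 lowest, at 11.9 and 11.2 TPM against 10.97 and 8.98 TPM. NDUFA4, the complex IV subunit with a complex I symbol, was at 70.2 and 78.8 TPM against 63.4 and 62.2 TPM, without overlap.

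**Figure D3:**
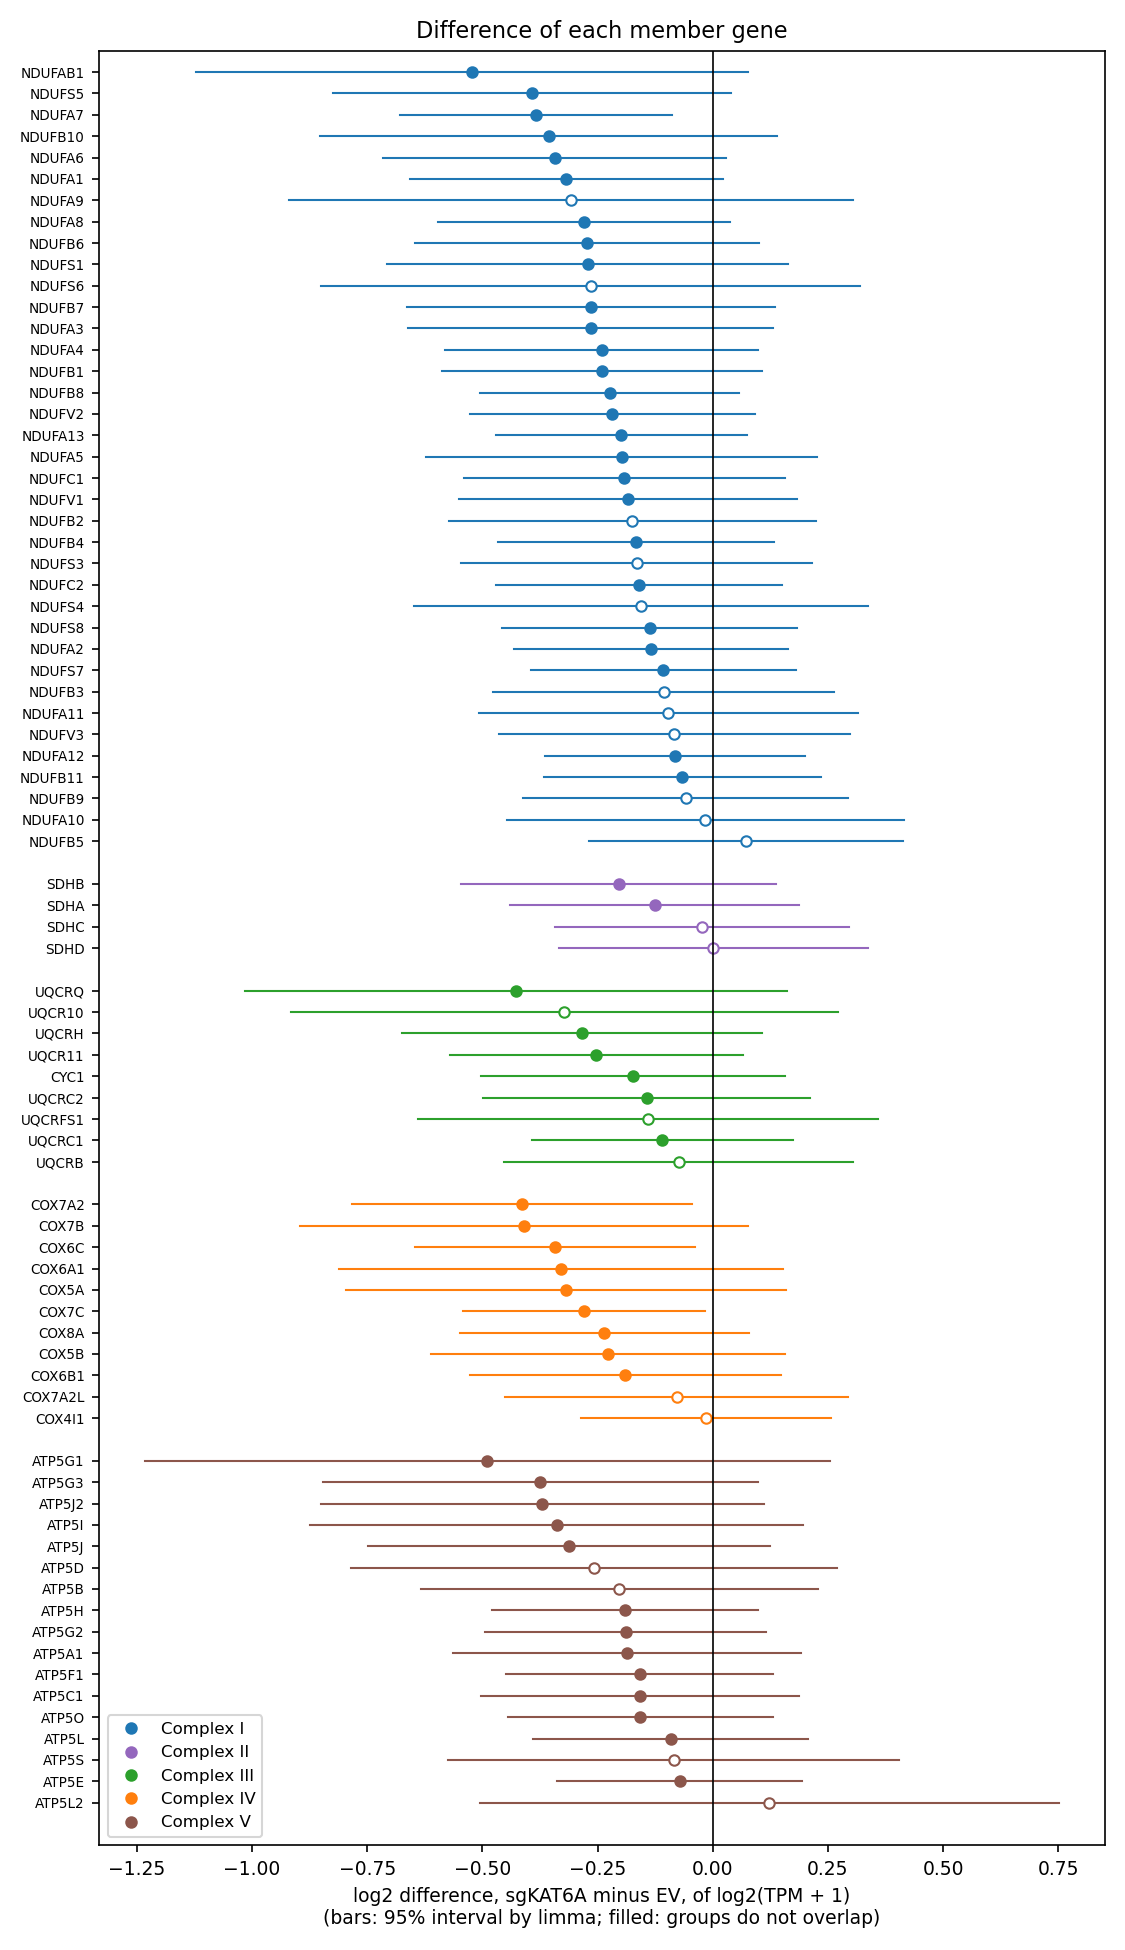
Log2 difference of log2(TPM + 1), sgKAT6A minus EV, for 78 of the 79 members by complex (points), with its 95% interval by limma (lines); filled points are genes whose groups do not overlap. The 26 complex I, 2 complex II, 6 complex III, 9 complex IV and 13 complex V genes with filled points lie below 0, and the intervals of NDUFA7, COX7A2, COX6C and COX7C do not reach 0.

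Complex II, succinate dehydrogenase, also belongs to the tricarboxylic acid cycle. Its members had a median log2 difference of -0.07. Of the 4, 2 were lower without overlap, beside 23.2% of all genes tested and 38.0% of the 880 abundant genes. The median was -0.03 with quantile normalization and -0.01 with rescaled protein-coding genes. The hydrophilic catalytic subunits were these 2. SDHA, the flavoprotein that oxidises succinate, was at 78.0 and 72.6 TPM in EV against 68.5 and 69.3 TPM in sgKAT6A. SDHB, the iron-sulfur subunit, was at 106 and 101 TPM against 95.2 and 84.7 TPM, a log2 difference of -0.20 ± 0.12 (SE).

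The membrane anchors of complex II overlapped between the groups. SDHC was at 40.8 and 43.7 TPM in EV against 42.0 and 41.2 TPM in sgKAT6A. SDHD was at 139 and 141 TPM against 149 and 132 TPM, so that its sgKAT6A libraries lay on either side of EV. The 95% interval of the log2 difference was -0.34 to 0.30 for SDHC and -0.33 to 0.34 for SDHD.

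Complex III, the cytochrome bc1 complex, had 6 of 9 members lower and 0 higher without overlap, with a median log2 difference of -0.17. That median was -0.29 without sgKAT6A replicate 1, -0.28 without EV replicate 2, -0.09 with quantile normalization and -0.11 with rescaled protein-coding genes. Among the genes for its redox subunits, CYC1, which encodes cytochrome c1, was at 675 and 618 TPM in EV against 604 and 544 TPM in sgKAT6A. UQCRFS1, the Rieske iron-sulfur protein, was at 221 and 180 TPM against 201 and 164 TPM, where the groups overlapped because both were split by replicate number (gaps of -0.29 in each). The core proteins UQCRC1 and UQCRC2, related to processing peptidases, were lower by smaller amounts. UQCRC1 was at 227 and 232 TPM against 213 and 212 TPM, and UQCRC2 at 103 and 97.2 TPM against 96.6 and 84.9 TPM.

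The largest differences in complex III were found among its small subunits, although UQCRB, also small, had the smallest difference of that complex. UQCRQ, a subunit near cytochrome b, was at 112 and 94.5 TPM in EV against 89.4 and 64.9 TPM in sgKAT6A, a log2 difference of -0.43 ± 0.21 (SE) that was smaller than the gap between the sgKAT6A libraries (-0.46). UQCRH, the hinge protein that assists the contact with cytochrome c, was at 740 and 673 TPM against 634 and 531 TPM, a difference of -0.28 that exceeded both gaps. UQCR10 (-0.32) and UQCRB (-0.07) overlapped, and UQCR11 (-0.25) did not.

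Complex IV, cytochrome c oxidase, had 9 of 11 members lower and 0 higher without overlap, with a median log2 difference of -0.28, the most negative of the complexes; without sgKAT6A replicate 2 it was -0.15. COX7C, which was the most abundant of all members, was at 2193 and 2081 TPM in EV against 1764 and 1756 TPM in sgKAT6A (chr5:86617941-86620962). Its log2 difference was -0.28 ± 0.09 (SE), with an unadjusted p of 0.0413 by limma and a gap of -0.01 between the sgKAT6A libraries. COX7A2 (chr6:75237675-75250298), the widely expressed isoform of subunit VIIa, was at 510 and 464 TPM against 393 and 339 TPM. COX6C (chr8:99877865-99893707) was at 452 and 465 TPM against 378 and 345 TPM. The groups of these 3 genes were separate, with differences of -0.41 for COX7A2 (unadjusted p = 0.0357 by limma) and -0.34 for COX6C (unadjusted p = 0.0354 by limma) and an adjusted p of 0.784 for each.

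Other members of complex IV fitted the same order of groups. COX7B was at 644 and 518 TPM in EV against 476 and 396 TPM in sgKAT6A. COX5A, a matrix-side subunit, was at 434 and 389 TPM against 374 and 290 TPM, and COX5B, a zinc-binding subunit on the matrix side, at 897 and 764 TPM against 748 and 668 TPM. Their log2 differences were -0.41, -0.32 and -0.23, and those of COX5A and COX5B did not exceed the larger of the gaps between replicates (-0.36 and -0.23). COX6A1 (-0.33), COX8A (-0.24) and COX6B1 (-0.19) were also lower without overlap.

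The exceptions in complex IV were COX4I1 and COX7A2L. COX4I1 encodes the common isoform of subunit IV, whose binding of adenine nucleotides regulates the enzyme, and was at 832 and 821 TPM in EV against 835 and 801 TPM in sgKAT6A. Its log2 difference was -0.01 ± 0.10 (SE), the 95% interval ran from -0.29 to 0.26, and its sign turned positive with quantile normalization, with rescaled protein-coding genes and without sgKAT6A replicate 2. COX7A2L, a relative of subunit VIIa that joins complexes III and IV into supercomplexes, was at 98.3 and 91.5 TPM against 96.5 and 83.5 TPM. Whether COX4I1 differed from the other subunits was not tested.

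Complex V, the ATP synthase, had 13 of 17 members lower and 0 higher without overlap, with a median log2 difference of -0.19. The alpha and beta subunits form the catalytic head. ATP5A1 (alpha, ATP5F1A in RefSeq) was at 445 and 422 TPM in EV against 416 and 349 TPM in sgKAT6A. ATP5B (beta, ATP5F1B in RefSeq) was at 637 and 582 TPM against 590 and 474 TPM, where EV replicate 2 lay just below sgKAT6A replicate 1. Of the central stalk, ATP5C1 (gamma) was lower without overlap (-0.16), ATP5D (delta) overlapped (-0.26), and ATP5E (epsilon) was at 986 and 957 TPM against 915 and 933 TPM, the highest level in the complex.

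The proton-carrying ring of ATP synthase is made of c subunits, which ATP5G1, ATP5G2 and ATP5G3 encode as the same mature protein behind different import sequences. ATP5G1 was at 291 and 246 TPM in EV against 239 and 152 TPM in sgKAT6A. ATP5G2 was at 437 and 471 TPM against 386 and 410 TPM, and ATP5G3 at 94.6 and 84.0 TPM against 77.1 and 61.0 TPM. These 3 genes were lower without overlap, by -0.49 ± 0.27, -0.19 ± 0.11 and -0.37 ± 0.17 (log2 ± SE). Without sgKAT6A replicate 2 the differences of ATP5G1 and ATP5G3 were -0.16 and -0.21, and without sgKAT6A replicate 1 that of ATP5G1 was -0.82. The ATP5G1 difference was smaller than the gap of -0.65 between the sgKAT6A libraries, and ATP5G2 was higher in replicate 2 than in replicate 1 in both groups, opposite to the other c-subunit genes.

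Among the remaining subunits of complex V, those of the membrane part and stalk had a similar range. The log2 differences without overlap were -0.37 for ATP5J2 (subunit f), -0.34 for ATP5I (subunit e), -0.31 for ATP5J (coupling factor 6), -0.19 for ATP5H (subunit d), -0.16 for ATP5F1 (subunit b), -0.16 for ATP5O (the oligomycin sensitivity protein) and -0.09 for ATP5L (subunit g). ATPIF1, which encodes the inhibitor of ATP hydrolysis and is not among the 79, overlapped, at 376 and 426 TPM in EV against 321 and 432 TPM in sgKAT6A. Reads of genes with near-identical copies or processed pseudogenes, such as ATP5L with ATP5L2, could be split between them, and the labels do not say how the authors' quantification treated these.

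Members with an NRF1 core in the promoter window had a median log2 difference of -0.22 (12 genes), against -0.19 for the 52 without. For the ETS site the medians were -0.24 (16 genes) and -0.18 (48 genes), and for the E-box -0.21 (6 genes) and -0.20 (58 genes). Over protein-coding genes tested, the medians with and without each motif were -0.07 and -0.03, -0.08 and -0.02, and -0.05 and -0.03 in the same order. Of the 3 genes whose promoters are shown, COX6A1 was at 527 and 491 TPM in EV against 463 and 353 TPM in sgKAT6A. ATP5J was at 161 and 148 TPM against 138 and 111 TPM.

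Assembly factors, which build the complexes and insert their cofactors, had negative medians in complexes I, III, IV and V. Of all genes tested, 23.2% were lower and 14.4% higher without overlap, the background for each list named here. Of 18 complex I assembly genes, 9 were lower and 0 higher without overlap, with a median of -0.25. FOXRED1, an assembly factor with an oxidoreductase fold, was at 27.4 and 29.8 TPM in EV against 21.3 and 20.9 TPM in sgKAT6A, and NDUFAF1 was at 23.8 and 23.8 TPM against 19.7 and 17.6 TPM. In complex III, 4 of 6 were lower without overlap (median -0.29), among them UQCC2, needed for cytochrome b synthesis, at 49.1 and 46.8 TPM against 37.6 and 33.8 TPM, and BCS1L, which inserts the Rieske protein, at 37.3 and 34.0 TPM against 31.0 and 21.0 TPM.

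In complex IV, 12 of 24 assembly genes were lower and 2 higher without overlap (median -0.29). COX17, the copper chaperone, was at 209 and 207 TPM in EV against 169 and 166 TPM in sgKAT6A, and COA3 at 43.9 and 45.9 TPM against 35.6 and 28.2 TPM. COX20, a chaperone of subunit 2, was on the higher side at 19.8 and 19.1 TPM against 20.1 and 22.5 TPM, as was COA5 at 16.0 and 16.3 TPM against 16.7 and 18.9 TPM. Complex V assembly genes had 2 of 5 lower (median -0.15), and complex II assembly genes 1 of 4 (median 0.03), near the background of 23.2%. None of the assembly genes passed the test across all genes by limma.

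Other genes of mitochondrial energy metabolism had medians between -0.19 and -0.27. For the tricarboxylic acid cycle with pyruvate dehydrogenase, 10 of 18 genes were lower and 0 higher without overlap (median -0.19), such as FH, the fumarase, at 56.2 and 50.7 TPM in EV against 45.9 and 35.6 TPM in sgKAT6A. Among cytochrome c, carriers and porins, 4 of 9 were lower (median -0.27). The outer membrane channel gene VDAC1 was at 161 and 151 TPM against 126 and 96.3 TPM, and VDAC2 at 111 and 111 TPM against 91.4 and 81.5 TPM. CYCS, cytochrome c itself, overlapped at 59.99 and 46.8 TPM against 50.2 and 29.5 TPM. Coenzyme Q synthesis had 4 of 11 lower (median -0.22) and genes of cristae and their organising complex 7 of 12 (median -0.21), with 0 higher in both lists, beside 23.2% lower and 14.4% higher among all genes tested.

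Regulators of these genes were measured too. Of 15 tested, 6 were lower and 0 higher without overlap (all genes tested: 23.2% and 14.4%), with a median of -0.13. PPRC1, a coactivator of the PGC-1 family, was at 20.3 and 18.0 TPM in EV against 15.8 and 9.57 TPM in sgKAT6A. The GABP subunit genes GABPB1 (12.7 and 11.8 TPM against 10.5 and 9.62 TPM) and GABPA (11.4 and 12.7 TPM against 10.3 and 10.6 TPM) were lower without overlap, as was NRF1, at 7.55 and 8.03 TPM against 7.17 and 6.92 TPM. GABPB2 overlapped, at 9.44 and 8.47 TPM against 9.97 and 8.58 TPM, a log2 difference of 0.04. TFAM, the packaging factor of mitochondrial DNA, was at 21.5 and 21.2 TPM against 20.2 and 15.8 TPM. MYC overlapped, at 161 and 93.0 TPM against 107 and 55.7 TPM, and PPARGC1A was under 1 TPM in each library. The 13 mitochondrially encoded subunits are not listed under their symbols in the table used and were not analysed here.

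**Figure D4:**
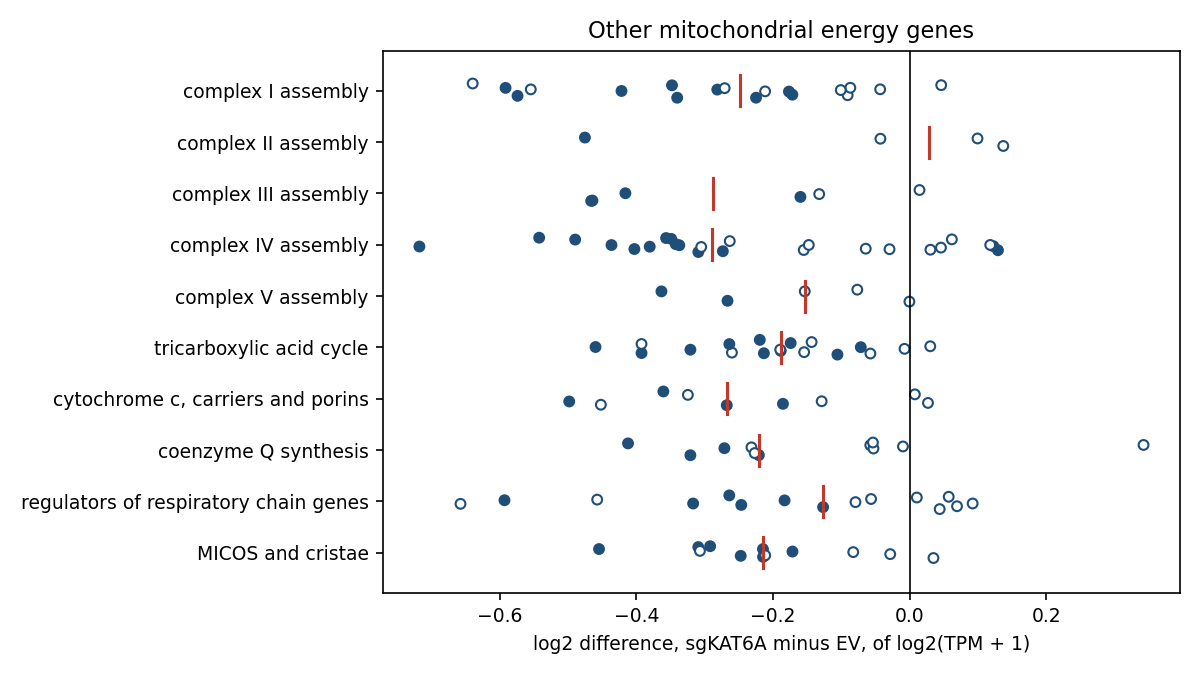
Log2 difference, sgKAT6A minus EV, of single genes (points, spread vertically for visibility) in lists of assembly factors and other mitochondrial energy genes; filled points are genes whose groups do not overlap, and red bars mark list medians. The medians lie between -0.29 and 0.03, and complex II assembly genes have the positive one.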

How the data were processed

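RNA-seq libraries of 4 MOLM-13 samples (2 EV, 2 sgKAT6A, assigned by title) were compared. The authors deposited a TPM table by gene symbol; per the submitters' processing notes the tool was Salmon and the build hg38, and the labels leave out version, annotation and transcript-to-gene step. Each library sums to 1000000 TPM and read depth is unknown, so no count model was used.

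Genes whose mean reached 1 TPM were tested as log2(TPM + 1) with limma 3.58.1 in R 4.3.3 (moderated variances, mean-variance trend, 2 residual degrees of freedom, two-sided, Benjamini-Hochberg over all genes, threshold 0.05); the script was tested on simulated data. This scale understates changes of low genes. "Without overlap" means that both libraries of one group lay below both of the other. Members, gene lists and naming rule (core subunits, c-subunit genes and the inhibitor, extremes of difference and level in each complex, unadjusted p under 0.05) were chosen with earlier results of these data known. 1 member that this rule names is counted but not reported here. Members matched RefSeq by 61 current and 18 older symbols. The 880 abundant genes were chosen as a second background after seeing the data. Alternatives changed pseudocount, filter, scaling, variance trend, replicate block and libraries used. Figures were drawn with matplotlib 3.10.9.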

Additional observations from a re-analysis of the deposited data

How the results depend on the processing

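The median difference of the members stayed negative under each alternative run, between -0.28 (sgKAT6A replicate 1 left out) and -0.13 (rescaled protein-coding genes, and also with sgKAT6A replicate 2 left out), and was -0.19 with a pseudocount of 0.1 or 5, no filter, a mean of at least 5 TPM or no variance trend. Members lower without overlap numbered 29 with quantile normalization, and the cause was not tested; with 1 library left out, when fewer libraries must separate, they numbered 58 to 74 (background 33.3% to 44.2%). Genes called by limma over the whole table numbered 0 under each alternative except the replicate block, which gave 15, with 29 members and 19.2% of all genes tested at an unadjusted p under 0.05, and a smallest adjusted p of 0.165 among members. The labels do not say that a number marks a shared culture, although same-numbered libraries deviated together (r = 0.45 across all genes tested). The block was not used elsewhere, but the monocyte markers were also compared by replicate number. Of 36 members named by rule, 27 had a log2 difference that moved by over 1.5 times when 1 library was left out.

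Among the 36 members named by rule, signs turned for those near 0 and also for UQCRFS1, whose difference with all libraries was -0.14. The cause was not tested. Signs of the other members were not followed here. NDUFS4 (-0.16) is an example, with sgKAT6A replicate 1 (69.5 TPM) above both EV libraries (67.7 and 67.1 TPM). With quantile normalization COX4I1 was at 0.01 and SDHC at 0.0097. With rescaled protein-coding genes COX4I1 was at 0.0472, NDUFB9 at 0.0025 and SDHC at 0.0369. With 1 library left out at a time, values ran from -0.2184 to 0.0492 for ATP5S, -0.0445 to 0.0156 for COX4I1, -0.1819 to 0.0258 for COX7A2L, -0.1786 to 0.0602 for NDUFB9, -0.0714 to 0.0242 for SDHC, -0.0855 to 0.0878 for SDHD and -0.2874 to 0.0068 for UQCRFS1.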

Other observations

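Isoforms of complex IV subunits used in particular tissues were at or near 0 in these cells. COX4I2, COX6A2 and COX7B2 were listed at 0 in each library, and COX8C at 0 in 3 of 4. COX7A1, the heart and muscle isoform of subunit VIIa, was at 0.778 and 0.494 TPM in EV against 1.57 and 1.27 TPM in sgKAT6A, far under COX7A2. Its EV mean was 0.636 TPM, so it passed the filter of 1 TPM only through sgKAT6A, the group where it is higher. Its test (adjusted p = 0.784 by limma) and the order of its groups therefore carry no weight. COX6B2, under the filter, was at 0.138 and 0.181 TPM in EV against 0.378 and 0.562 TPM in sgKAT6A. NDUFA4L2, the hypoxia-responsive relative of NDUFA4, was at 3.85 and 3.06 TPM against 4.01 and 3.13 TPM.

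The second g-subunit gene ATP5L2 was at 11.7 and 10.5 TPM in EV against 14.8 and 9.95 TPM in sgKAT6A, against 160 and 165, then 157 and 149 TPM for ATP5L. ATP5S was at 8.01 and 6.48 TPM against 7.35 and 6.18 TPM. The ATP synthase subunit genes USMG5 and C14orf2, whose symbols in the table lack the ATP5 prefix, were not counted as members. USMG5 was at 655 and 556 TPM in EV against 519 and 381 TPM in sgKAT6A, lower without overlap, and C14orf2 at 248 and 207 TPM against 208 and 177 TPM, with overlap.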
